A study of Homo sapiens with 12 samples.

Results

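The genes described here encode the proteins of the cytosolic ribosome. They were chosen by name alone, as protein-coding genes called RPL, RPS, RPSA or RPLP with a number, without the RPS6K kinases, and 84 of the 58735 genes in the table met this rule. Of these, 32 carry small-subunit names and 52 large-subunit names, the latter including the 3 stalk genes and the paralogs of large-subunit genes. RNA was measured in HepaRG cells, an established human hepatic line labelled wild type, in 4 groups of 3 libraries. Control cells were untreated. PA cells received the saturated fatty acid palmitate, carrying deuterium, at 400 µM for 4 h. PA+OA cells received the same palmitate with 200 µM oleate, a monounsaturated fatty acid, for 4 h. PA+BMS cells received 50 µM BMS-309403, a small molecule that blocks the lipid carrier FABP4, for 24 h, with palmitate over 4 h. Palmitate is thus shared by the last 3 groups, and no group had oleate or BMS-309403 alone. They are compared as palmitate (PA against control), oleate (PA+OA against PA) and inhibitor (PA+BMS against PA), and PA enters all 3 comparisons. Labels do not say whether the replicates were separate cultures, so p-values measure only the spread between these libraries, which may be technical.

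The cytosolic ribosome is built from a small subunit, which decodes messenger RNA, and a large subunit, which forms the peptide bond. Its proteins are made in nearly equal numbers and are assembled on ribosomal RNA in the nucleolus. Their messenger RNAs are among the most abundant of growing cells, and most begin with a 5′ terminal oligopyrimidine (TOP) run, a C followed by further C or T bases. Through this run their translation is controlled by the growth kinase mTOR and the RNA-binding protein LARP1, largely without a change in the amount of the messenger RNA. In liver, ribosome production is known for following growth and nutrient supply.

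Beyond the name, a TOP start was a feature of many genes of the family, but not of all. In the RefSeq promoter table on GRCh38.p14, 67 of the 84 genes were matched by symbol. A run of at least 5 pyrimidines that opens with C at the annotated start was present in 43 of these 67 (64.2%), against 4.04% of all 27305 promoters and 5.30% of the promoters of 8060 other protein-coding genes expressed here. Within 10 bases of the annotated start on either side such a run occurred in 56 of 67 (83.6%), against 33.3% of all promoters. Windows from 10 bases before to 20 bases after the start are shown for genes on which the results below turn, on the coding strand, with the longest run near the start in capitals.
RPS6: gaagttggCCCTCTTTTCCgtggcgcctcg
RPLP0: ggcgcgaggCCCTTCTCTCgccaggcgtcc
RPLP1: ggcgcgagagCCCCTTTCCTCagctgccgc
RPL18: agcccgttCTCTCTTTCCggacctggccga
RPS9: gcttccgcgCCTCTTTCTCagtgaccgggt
RPL14: ggtCTTCTTCCTTCTCgcctaacgccgcca
RPL3: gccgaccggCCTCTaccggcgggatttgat
RPL22: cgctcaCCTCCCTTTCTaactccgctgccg
RPL22L1: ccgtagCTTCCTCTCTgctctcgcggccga
RPL7L1: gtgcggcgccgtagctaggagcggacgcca
RPL26L1: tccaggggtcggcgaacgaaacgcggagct
RPS27L: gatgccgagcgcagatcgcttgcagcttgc
RPS6, RPLP0, RPLP1, RPL18 and RPS9 have long runs, whereas the run of RPL3 holds 5 bases and begins 1 base before the annotated start, so that RPL3 is not among the 43. RPL22 and its paralog RPL22L1 both have a run that crosses the start. RPL7L1, RPL26L1 and RPS27L, paralogs of RPL7, RPL26 and RPS27, have no run of 5 within 10 bases of the start. In coordinates, the RPS6 window is chr9:19380217-19380246 on the minus strand, the RPLP0 window chr12:120201092-120201121 on the minus strand, and the RPL22L1 window chr3:170870176-170870205 on the minus strand. A match is a feature of the sequence near an annotated start and does not show where these cells start transcription.

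Values are FPKM, fragments per kilobase of summed exon length scaled to a library size. The length in the table was 1 to 14.5 times that of the main transcript (median 2.62), so the order of levels between genes is approximate. Main transcript here means the protein-coding transcript with the best APPRIS tag in the annotation, and the longest one among ties. It need not be the transcript these cells express. For RPL37 it has 7686 bases, so levels scaled to it are approximate too. Whole reads recovered from the FPKM values summed to between 16059128 and 19971190 per library. The library size behind the values was not this sum. Recovered reads divided by that size gave 0.91 to 0.97 in control, 1.02 to 1.13 in PA, 0.97 to 1.21 in PA+OA and 0.88 to 0.92 in PA+BMS. FPKM sums ran from 267959 to 293995 in control, 320299 to 355834 in PA, 299034 to 402688 in PA+OA and 258747 to 264111 in PA+BMS. Fits with these sums set equal are given below. The labelled cell type was not borne out by the hepatocyte markers. All 8 on the list, albumin among them, stayed under 1 FPKM in every library, and ALB and FGB were listed at 0. Of the bile duct markers only KRT7 passed 1 FPKM, at 139 to 917 FPKM. The summed bile duct list, nearly all of it KRT7, was 139.9 to 185 FPKM in PA+BMS against 477 to 917 FPKM in the other groups. SOX9 read 0.563 to 0.641 FPKM in PA+BMS and 0.359 to 0.623 FPKM elsewhere. All 4 mesenchymal markers reached 1 FPKM in some library. VIM read 60.1 to 79.7 FPKM, and PDGFRB 1.46 to 1.57 FPKM in PA+BMS against 2.74 to 3.76 FPKM in the other groups. VIM, COL1A1 and ACTA2 overlapped between PA+BMS and the other groups. CSF1R, a macrophage marker, read 0.518 to 0.607 FPKM in PA+BMS against 1.51 to 2.19 FPKM elsewhere. CD14, on the same list, read 0.163 to 0.438 FPKM in PA+BMS and 0 to 0.663 FPKM elsewhere, and CD68 also overlapped. CDH5, an endothelial marker, read 0.226 to 0.383 FPKM in PA+OA and PA+BMS against 0.953 to 1.66 FPKM in control and PA. PECAM1, the other endothelial marker, overlapped between these groups. The part of these levels in the results was not tested. PA+OA replicate 1 and PA+BMS replicate 3 stood apart: over all 11856 genes tested, the first held the highest value of 29.02% and the lowest of 24.0%, and the second the highest of 26.5% and the lowest of 27.0%. GC content and gene length together accounted for 45.6% of the variance of log2 differences over genes in the palmitate comparison, 7.73% in the oleate and 58.3% in the inhibitor comparison, so the main results are also given without both libraries and with each library's trend removed.

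Ribosomal protein genes ranked among the strongly expressed genes, but their RNA levels ranged widely. Over the 81 tested genes, those with at least 1 FPKM in at least 3 libraries, the mean over 12 libraries ran from 1.21 to 1655 FPKM with a median of 214 FPKM. A mean of at least 100 FPKM was reached by 55 genes, and 45 stayed at or above 100 FPKM in every library. The 4 highest were RPL8 at 1655, RPS2 at 1343, RPL13A at 1188 and RPS12 at 977 FPKM. Scaled to the length of the main transcript as defined above, RPL8 and RPS2 kept ranks 1 and 2, and RPS12 moved from rank 4 to 20. RPL8, a large-subunit protein near the peptidyl transferase centre, read 1619, 1149 and 1272 FPKM in control, 2112, 2204 and 1919.7 in PA, 3059, 1737 and 1524 with oleate, and 1228, 1155 and 879 with the inhibitor. Its highest and lowest values thus came from PA+OA replicate 1 and PA+BMS replicate 3, while the other 2 PA+OA libraries lay below all PA libraries. The coefficient of variation over 12 libraries ran from 6.86% for RPL14 to 40.8% for RPS9, with a median of 24.4%, and fell to a median of 16.5% over the 10 other libraries.

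**Figure D1:**
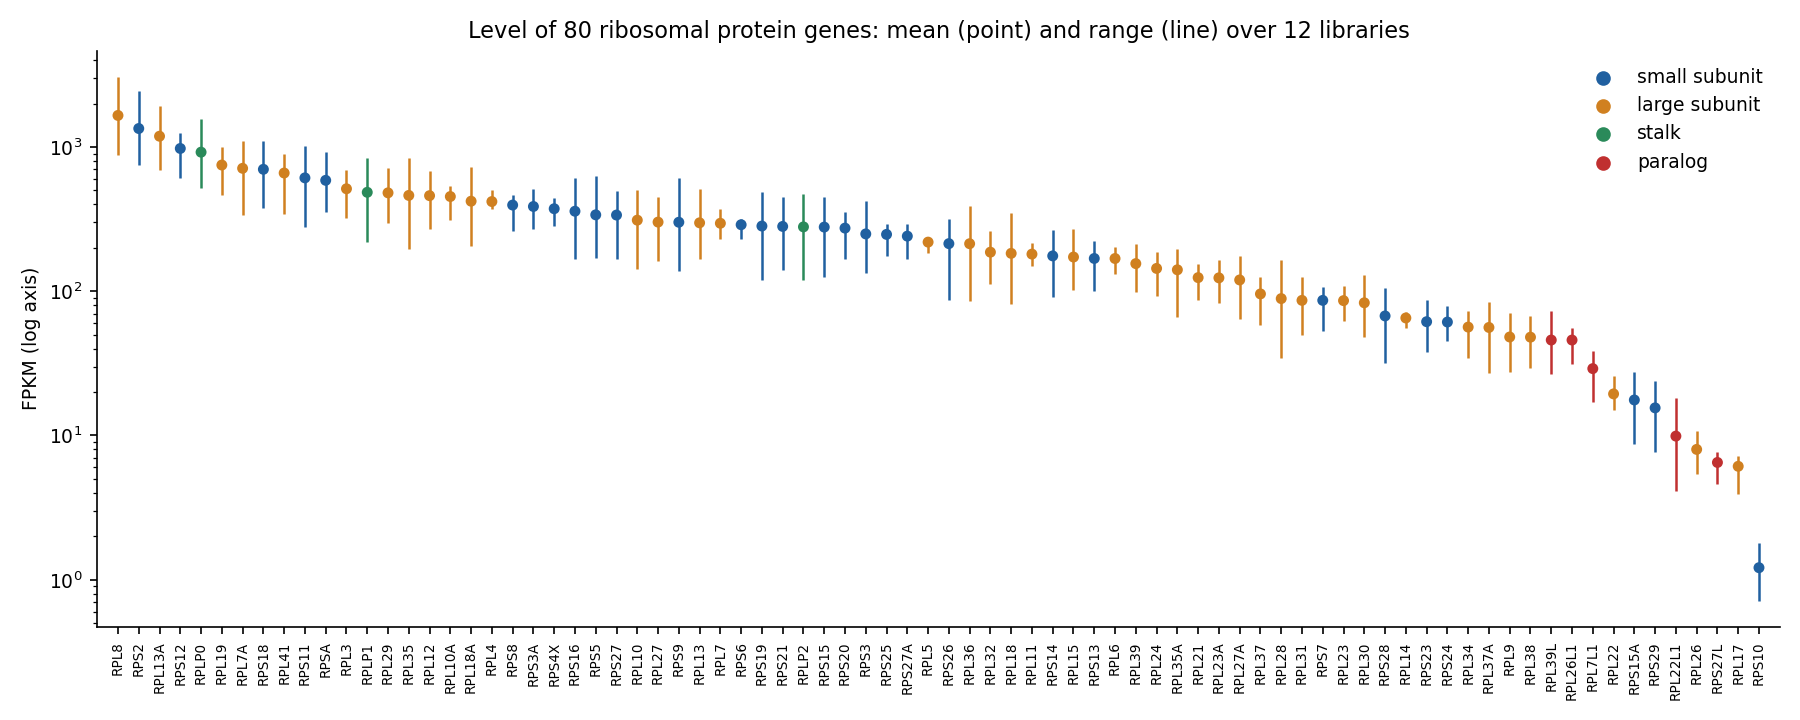
FPKM on a log axis for 80 of the 81 ribosomal protein genes, ordered by mean. Points are means and lines the range over 12 libraries, coloured by subunit, stalk or paralog. Levels span from 1655 FPKM for RPL8 to 1.21 FPKM for RPS10, and all 5 tested paralogs lie below 50 FPKM on average.

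Several genes with low values have reads that are hard to assign, and the part of this in their levels was not tested. A mean under 20 FPKM was listed for 12 of the 84 genes. Among them RPS10 (0.716 to 1.79 FPKM), RPL17 (3.96 to 7.16 FPKM) and RPL36A (0.233 to 0.857 FPKM) shared 88.0%, 76.3% and 77.6% of their main transcript with another gene annotated on the same strand. For RPS10 the partner is the read-through gene RPS10-NUDT3, for RPL17 it is RPL17-C18orf32 and for RPL36A it is RPL36A-HNRNPH2. Processed pseudogenes are numerous in this family, with 1144 annotated rows named after 77 of the 84 genes. These rows held 4.42% of the reads of genes and pseudogenes together, but 80.3% for RPS10, 65.8% for RPS28 and 60.7% for RPL9. The RPS10 level is uncertain for both reasons. Neither applied to RPL22L1 or RPS27L, which also had a mean under 20 FPKM. RPL36A, RPL10L with no read in any library, and RPL3L with 86 reads in all were not tested, so 81 of the 84 enter every count below.

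The family moved as a block between libraries. PA+OA replicate 1 gave the highest value for 65 of the 81 genes, and PA+BMS replicate 3 the lowest for 73. On the log2(FPKM + 1) scale the median deviation from each gene's own mean was 0.58 in the first of these libraries and -0.72 in the second, against 0.022 and -0.042 for all genes tested. Among the other 10 libraries PA replicate 2 was highest for 49 genes. Most genes followed the family mean: the correlation across 12 libraries, which share depth and scaling, had a median of 0.96. The lowest were RPL7L1 at -0.72, RPL22 at -0.11 and RPS10 at 0.030. Over the 10 other libraries the median was 0.92, and the lowest were RPS10 at -0.58, RPL14 at -0.54, RPL7L1 at -0.45 and RPL22 at -0.41, while RPS6 went from 0.53 to -0.26.

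**Figure D2:**
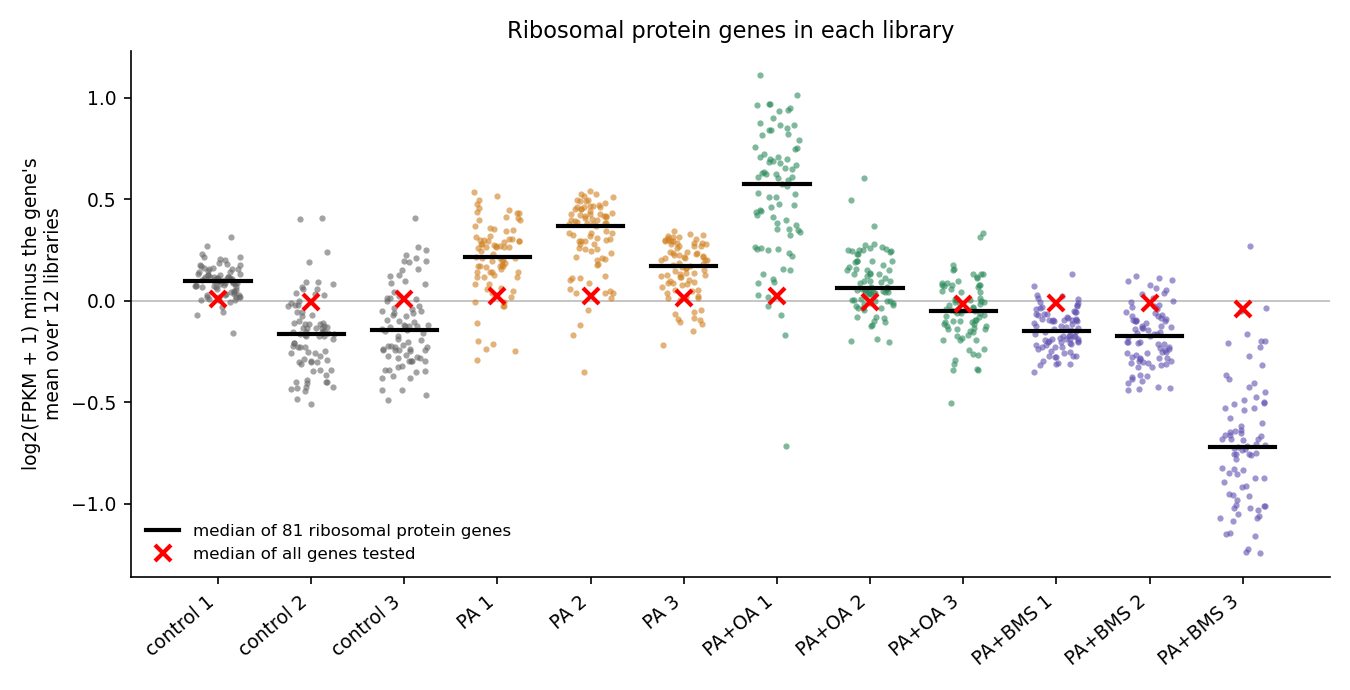
Deviation of log2(FPKM + 1) from each gene's mean over 12 libraries, for 81 ribosomal protein genes (points) in each library, with their median (bar) and the median of all 11856 genes tested (cross). Medians of the PA libraries lie above 0, that of PA+OA replicate 1 is 0.58, that of PA+BMS replicate 3 is -0.72, and the crosses stay near 0.

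The palmitate comparison sets PA beside control. Most ribosomal protein genes had higher values in PA, but in limma only RPL3 passed the test upward and only RPL22 downward. Over the 81 genes the median log2 difference was 0.32, against 0.028 over all genes tested, and 71 were positive. With limma on log2(FPKM + 1) and Benjamini-Hochberg adjustment over 11856 genes, 1 rose, against 12.8% of all genes, and 1 fell, against 14.8%. At an unadjusted p below 0.05, 18 were higher and 2 lower. The share of all genes at that cut is not given, here or below, so such counts cannot be set against the background. In 47 genes every PA library was above every control library, against 31.3% of all genes, and in 4 every PA library was below, against 29.3% of all genes. In bulk RNA, fewer cells of a type and less RNA per cell cannot be told apart, here and in every comparison below.

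RPL3, a core large-subunit protein that reaches toward the peptidyl transferase centre (ENSG00000100316, chromosome 22, 39312882 to 39320389, minus strand), was the gene that rose. It read 507, 409.9 and 461 FPKM in control and 675, 654 and 616 FPKM in PA. All PA libraries lay above all control libraries, and the log2 difference was 0.50 (SE 0.17, adjusted p = 0.043). RPL22 (ENSG00000116251, chromosome 1, 6185020 to 6209389, minus strand), a large-subunit protein that is not required for translation, was the gene that fell. It read 24.1, 25.7 and 22.1 FPKM in control and 19.1, 17 and 18.6 FPKM in PA, with no overlap, and its log2 difference was -0.38 (SE 0.12, limma adjusted p = 0.034). Its pseudogene rows held 13.5% of the reads under its name.

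The stalk proteins recruit elongation factors to the large subunit, and their genes gave higher values in PA without passing the test. RPLP0 read 896, 656 and 729 FPKM in control and 1174, 1174 and 1030.4 FPKM in PA, a log2 difference of 0.58 (SE 0.23, limma adjusted p = 0.075). RPLP1 differed by 0.56 and RPLP2 by 0.42 on the same scale. RPSA, a small-subunit protein that also acts as a laminin receptor, read 577, 421 and 510.2 FPKM in control and 819, 761 and 667 FPKM in PA, a difference of 0.58 (SE 0.22, limma adjusted p = 0.069). The groups did not overlap for RPSA, RPLP0 or RPLP1, and overlapped for RPLP2. By contrast RPS6, the small-subunit protein phosphorylated by S6 kinase, read 294, 307 and 305 FPKM in control and 267, 291 and 316 FPKM in PA, with overlap and a difference of -0.055 (SE 0.14).

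The palmitate count changed with the libraries that entered the fit and with the scaling. With PA+OA replicate 1 and PA+BMS replicate 3 left out, which are not in this contrast but enter the shared error, 47 of 81 genes rose (29.9% of all genes) and 3 fell (26.8%), with the same median of 0.32. RPLP0, RPSA, RPS2 and RPL8 were among those that then rose, with limma adjusted p from 0.0028 to 0.0033. With the FPKM sums of all libraries set equal 0 rose (4.42% of all genes) and 6 fell (23.8%), with a median of 0.046. Quantile normalization gave 0 that rose (13.2%) and 7 that fell (14.1%), with a median of 0.029. Removing the trend with GC and length gave 0 that rose (6.63%) and 0 that fell (9.34%). At an unadjusted p below 0.05 in limma those settings gave 1, 4 and 14 genes higher and 9, 10 and 2 lower. With both the trend and the 2 libraries removed, 38 rose (15.4%) and 1 fell (15.9%).

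**Figure D3:**
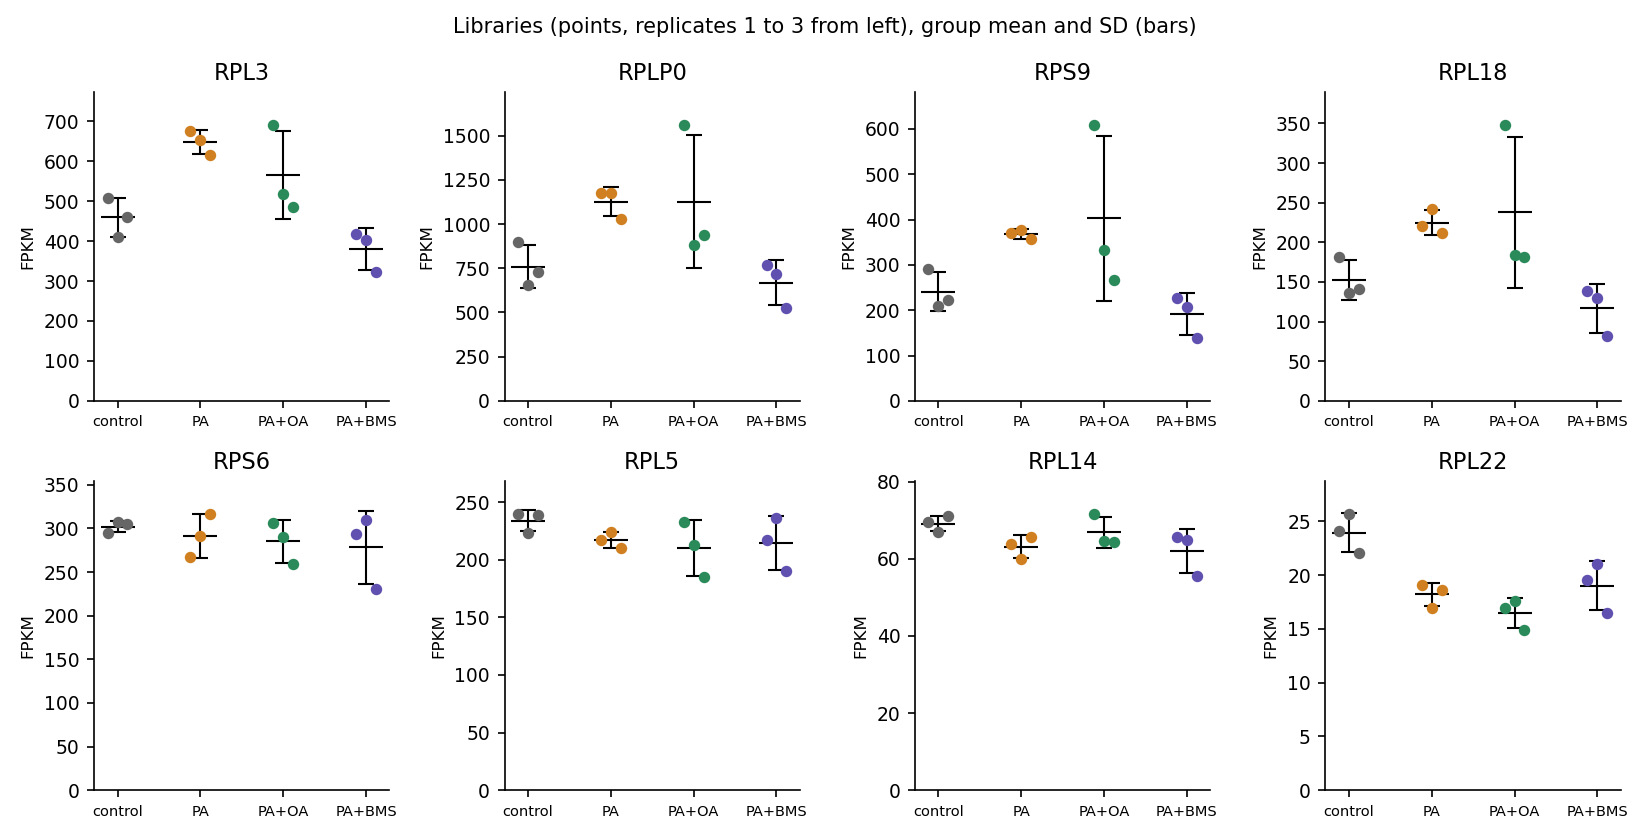
FPKM of 8 ribosomal protein genes by group, with libraries as points, the group mean as a bar and the SD (n = 3) as whiskers, on axes from 0. RPL3, RPLP0, RPS9 and RPL18 have all PA libraries above all PA+BMS libraries, RPS6, RPL5 and RPL14 overlap between PA and PA+BMS, and RPL22 is lower in PA than in control.

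The inhibitor comparison sets PA+BMS beside PA, both with palmitate. Ribosomal protein genes were lower in PA+BMS almost throughout: 55 of 81 (67.9%) fell, against 29.4% of all genes, and 0 rose, against 25.2%. The median log2 difference was -0.58, against -0.044 over all genes, and 3 genes were positive. Of the 81, 0 were higher and 62 lower at an unadjusted p below 0.05 in limma, and voom on recovered reads called 54 lower and 0 higher. Shares of all genes are not given for either count. In 65 genes every PA+BMS library lay below every PA library, against 36.7% of all genes. Small-subunit genes gave 21 falls of 31 with a median of -0.57, large-subunit genes 30 of 42 with -0.58, and all 3 stalk genes fell.

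RPL18, a large-subunit protein (ENSG00000063177, chromosome 19, 48615328 to 48619536, minus strand), showed the largest log2 fall. It read 220.3, 242 and 212 FPKM in PA and 139, 129.9 and 81.6 FPKM in PA+BMS, a log2 difference of -0.97 (SE 0.26, limma adjusted p = 0.011). RPS9, a small-subunit protein of the mRNA entry channel (ENSG00000170889, chromosome 19, 54200742 to 54249003, plus strand), read 371, 377 and 357 FPKM in PA and 226, 208 and 139 FPKM in PA+BMS, a difference of -0.97 (SE 0.27, limma adjusted p = 0.014). In both genes the groups were apart, with PA+BMS replicate 3 well below the other PA+BMS libraries. RPL35 and RPL8 followed at -0.95 each. RPL3 read 418, 402 and 321 FPKM in PA+BMS against 616 to 675 FPKM in PA, a log2 difference of -0.775 (SE 0.17, limma adjusted p = 0.0059). RPLP1, the stalk partner of RPLP2, read 534, 640.2 and 575 FPKM in PA and 416, 386 and 219.5 FPKM in PA+BMS, a difference of -0.83 (SE 0.26, limma adjusted p = 0.020). RPS19, the gene most often mutated in Diamond-Blackfan anaemia, fell by 0.88 on the log2 scale (SE 0.27, limma adjusted p = 0.018).

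The other 26 genes did not pass the test, RPS6, RPL5 and RPL14 among them. RPS6 read 294, 309.6 and 231 FPKM in PA+BMS, overlapping the 267 to 316 FPKM of PA, and differed by -0.074 (SE 0.14). RPL5, which carries the 5S RNA to the ribosome and binds MDM2, read 217, 236 and 190.2 FPKM against 217, 224 and 210.4 FPKM in PA and differed by -0.024 (SE 0.13). RPL14, the steadiest gene of the family, read 65.7, 64.8 and 55.5 FPKM against 63.9, 59.8 and 65.7 FPKM and differed by -0.029 (SE 0.11). By contrast RPL11, the other protein of the 5S particle, was among the 55. It read 169, 164 and 149 FPKM against 217, 204 and 201 FPKM and fell by 0.37 (SE 0.11, limma adjusted p = 0.016). RPL7L1 and RPS10 were positive at 0.13 each and RPL22 at 0.053, none passing the test.

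Without both libraries that stood apart, 53 genes fell (30.1% of all genes) and 0 rose (25%), with a median of -0.40, and all 53 were among the 55. Leaving out PA+BMS replicate 3 alone left 13 falls, and leaving out PA replicate 2 left 18, without shares of all genes to set beside them. Removing the trend with GC and length gave 36 that fell (10.4%) and 0 that rose (9.69%), with a median of -0.47, and 29 of them were among the 55. With both steps 50 fell (13.1%) and 0 rose (10.8%). With library totals set equal 16 fell (10.1%) and 4 rose (37.8%), and with quantile normalization 10 fell (23.7%) and 9 rose (24%), so the split of calls moved from 55 against 0 to 10 against 9. Setting totals equal moved the median of all genes to 0.29 in this comparison and to -0.22 in the palmitate comparison. Relative to that median the family stood at -0.53 in the main fit, at -0.50 with totals equal and at -0.035 with quantile normalization, and in the palmitate comparison at 0.30, 0.27 and 0.0029.

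The oleate comparison sets PA+OA beside PA, and ribosomal protein genes differed little. With limma 0 rose (4.01% of all genes) and 0 fell (3.91%), with a median log2 difference of -0.051, and voom on recovered reads also called 0 in each direction. At an unadjusted p below 0.05, 2 were higher and 1 lower. The 2 higher were RPL22L1, described below, and RPS10, the lowest of the tested genes. The 1 lower was RPL11, with 177, 177 and 164 FPKM in PA+OA against 217, 204 and 201 FPKM in PA and no overlap, a difference of -0.26 (SE 0.11, limma adjusted p = 0.18). PA+OA libraries disagreed among themselves: RPLP0 read 1559.6, 883 and 939.7 FPKM, and RPS9 read 609, 333 and 267 FPKM, so replicate 1 lay above the PA libraries and the other 2 below. All libraries of 2 genes lay above PA, against 13.3% of all genes, and those of 2 lay below, against 11.6%. With replicate 1 and PA+BMS replicate 3 both left out, the median was -0.22, 12 genes fell (14.2% of all genes) and 1 rose (11.2%), and in 47 genes both PA+OA libraries lay below all PA libraries, against 30% of all genes, and in 3 above, against 26.6%. RPSA had the largest of these falls, with 519 and 546 FPKM against 667 to 819 FPKM, a difference of -0.49 (SE 0.14, limma adjusted p = 0.028). Removing the trend with GC and length gave 0 that rose (7.11%) and 1, RPL11, that fell (7.17%), and with those libraries also left out 0 rose (10.7%) and 25 fell (12.5%). With totals set equal 0 rose (2.98%) and 0 fell (3.15%), and with quantile normalization 0 rose (3.8%) and 0 fell (4.57%). At an unadjusted p below 0.05 in limma these last settings gave 2 and 3 higher and 0 and 2 lower.

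Base composition went with the size of the differences. Across the 81 genes, which share their libraries, the correlation of the log2 difference with exon GC content was 0.63 for palmitate, 0.050 for oleate and -0.64 for the inhibitor. Without both libraries that stood apart these correlations were 0.63, -0.24 and -0.64. Over the 11767 other genes with a GC value the main fit gave 0.62, -0.13 and -0.71. In the 27 genes lowest in GC the median difference was 0.12 for palmitate and -0.40 for the inhibitor, with 9 inhibitor falls. In the 27 genes highest in GC it was 0.50 and -0.84, with 26 inhibitor falls. Over all genes tested 29.4% fell with the inhibitor. The share among other genes of the same GC range is not given, so these counts cannot be set against it. After the trend with GC and length was removed from each library, the correlations were -0.34 for palmitate, 0.23 for oleate and 0.44 for the inhibitor. The inhibitor falls were then 14, 17 and 5 in the low, middle and high 27, beside 10.4% of all genes. RPS6 (45.3% GC), RPL5 (43.1%) and RPL14 (46.4%), which did not pass the test, are among the 27 lowest, and RPL18 (57.9%), RPS9 (58.2%) and RPL35 (59.02%) among the 27 highest.

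**Figure D4:**
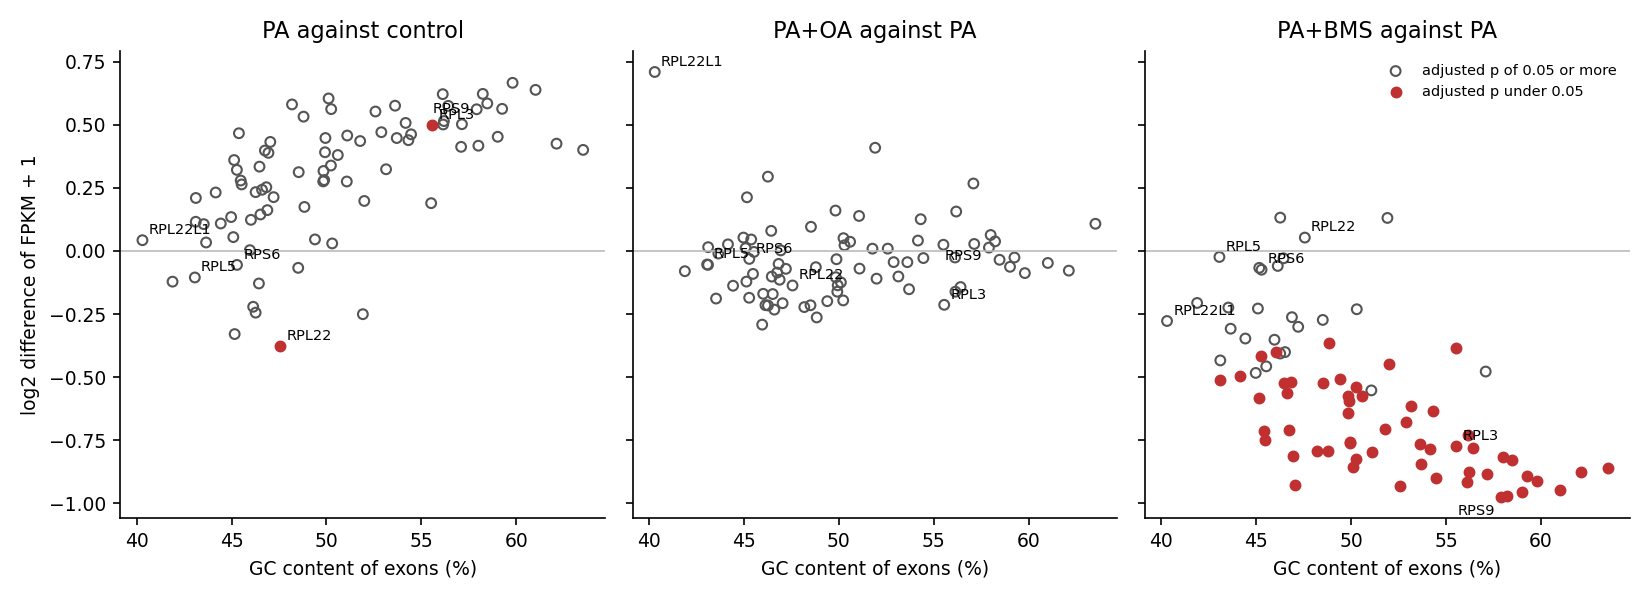
Log2 difference of FPKM + 1 against exon GC content for 81 ribosomal protein genes in 3 comparisons. Filled points have an adjusted p under 0.05. Differences rise with GC in PA against control (r = 0.63) and fall with GC in PA+BMS against PA (r = -0.64), while PA+OA against PA shows no such slope (r = 0.050).

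Other strongly expressed genes were set beside the family. Among 336 other nuclear protein-coding genes with a mean of at least 100 FPKM, a set chosen after values were seen, the median log2 difference was 0.44 for palmitate and -0.66 for the inhibitor. For the 55 ribosomal genes at that level it was 0.40 and -0.73. Inhibitor falls made up 71.7% of the former and 80% of the latter, while palmitate rises made up 19.9% and 1.82%. Without both libraries that stood apart the palmitate rises were 68.2% and 69.1%. With the trend of GC and length removed the inhibitor medians were -0.26 and -0.45, with 24.4% and 41.8% that fell. Without both libraries that stood apart the inhibitor medians were -0.56 and -0.50, with 71.7% and 78.2% that fell. With totals equal 34.5% and 25.5% fell with the inhibitor (medians -0.29 and -0.35). With quantile normalization 21.4% and 12.7% fell (medians -0.12 and -0.056).

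RPL22L1 had the largest difference of the family in the oleate comparison. It is a paralog of RPL22 that can take its place in the ribosome, on chromosome 3 (ENSG00000163584, 170864875 to 170870483, minus strand). It read 10.5, 8.41 and 6.63 FPKM in control, 8.03, 10.2 and 7.91 FPKM in PA, 18.3, 14.7 and 12 FPKM with oleate, and 8.76, 9.2 and 4.09 FPKM with the inhibitor. All 3 PA+OA libraries lay above the other 9. The log2 difference from PA was 0.71 (SE 0.25, limma adjusted p = 0.12), and without both libraries that stood apart it was 0.57 (SE 0.17, limma adjusted p = 0.033). After removal of the trend it was 0.50 (SE 0.27, limma adjusted p = 0.27), and after both steps 0.34 (SE 0.18, limma adjusted p = 0.19). RPL22 itself read 17, 17.6 and 14.9 FPKM in PA+OA and overlapped PA. RPL22L1 thus amounted to 35.5% ± 7.2 of RPL22 in control (SD, n = 3), 48.3% ± 10.4 in PA, 90.7% ± 15.1 with oleate and 37.8% ± 11.3 with the inhibitor, and the PA+OA libraries, at 80.5% to 108%, did not overlap the 24.8% to 60.3% of the rest. RPL22L1 has the lowest GC content of the family, 40.3%.

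**Figure D5:**
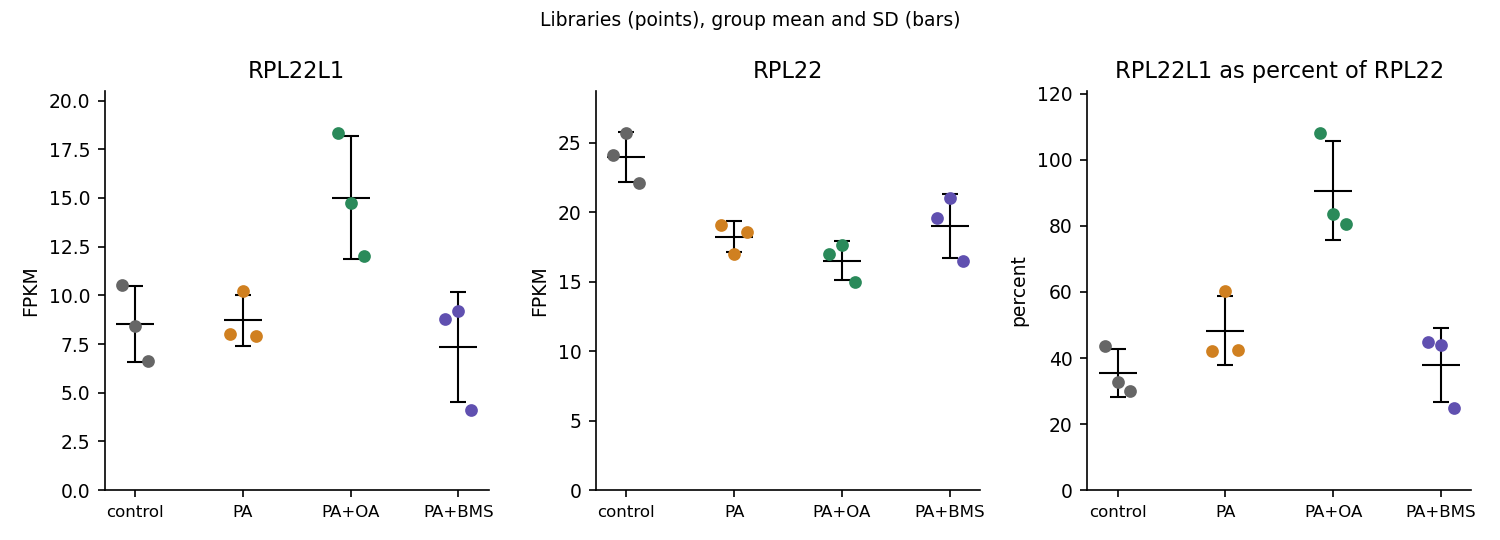
FPKM of RPL22L1 and of RPL22, and RPL22L1 as percent of RPL22, by group. Points are libraries, bars group means and whiskers SD (n = 3). RPL22L1 is highest in the 3 PA+OA libraries (12 to 18.3 FPKM), and its ratio to RPL22 is 80.5% to 108% there.

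Of the other tested paralogs, RPL39L passed the test in the inhibitor comparison. RPL26L1, a paralog of RPL26 with a separate gene, read 31.2 to 55.9 FPKM, far above the 5.41 to 10.8 FPKM listed for RPL26, whose pseudogene rows held 29.2% of the reads under its name and which shares 38.7% of its main transcript with another gene. RPL39L, known from testis and tumours, reached 23.8% to 36.5% of RPL39. It read 42, 33.5 and 41.3 FPKM in control, 62.8, 57.9 and 49.5 FPKM in PA, and 35.4, 35.4 and 26.6 FPKM with the inhibitor. PA lay above both, and RPL39L fell in PA+BMS against PA by 0.79 on the log2 scale (SE 0.195, limma adjusted p = 0.0089), and also after removal of the trend (-0.69, limma adjusted p = 0.023). RPL7L1, a nucleolar relative of RPL7, read 17.1 FPKM in PA+OA replicate 1 and 26.7 to 38.2 FPKM elsewhere, the opposite of the family in that library. RPS27L, a p53 target, stayed between 4.62 and 7.71 FPKM, 1.43% to 2.99% of RPS27.

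Functional groups within the family were counted in the same way. Of the 4 proteins of the 5S particle and MDM2 binding, RPL5, RPL11, RPL23 and RPS7, 2 fell with the inhibitor, beside 67.9% of the family and 29.4% of all genes, with a median of -0.38, and their palmitate median was 0.16. Of 15 genes mutated in Diamond-Blackfan anaemia, a failure of red cell production, 7 fell with the inhibitor, with a median of -0.48. Without both libraries that stood apart 1 of the 4 (median -0.23) and 7 of the 15 (median -0.28) fell, and after removal of the trend 2 (median -0.50) and 6 (median -0.60). RPS26, one of these, read 226, 279 and 255 FPKM in PA and 192, 178 and 86.3 FPKM with the inhibitor, a difference of -0.81 (SE 0.26, limma adjusted p = 0.023). RPS27A, which encodes ubiquitin fused to a small-subunit protein, fell by 0.40 (SE 0.16, limma adjusted p = 0.046). RPL41, the smallest ribosomal protein, fell by 0.64 (SE 0.22, limma adjusted p = 0.029).

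A pair of features that the names did not use were compared with the differences. Small nucleolar RNAs lie within the span of 28 of 81 genes (34.6%), against 1.48% of 10053 other protein-coding genes. These 28 hosts had an inhibitor median of -0.64 with 22 falls, and the 53 others -0.57 with 33 falls, beside 29.4% of all genes. After removal of the trend the medians were -0.48 and -0.47, with 16 and 20 falls, beside 10.4% of all genes. The 42 tested genes with a pyrimidine run at the start had a median of -0.66 with 28 falls, and the 23 without one -0.41 with 13 falls. After removal of the trend these medians were -0.49 and -0.46, with 17 and 11 falls. For palmitate the medians with and without a run were 0.39 and 0.21, and after removal of the trend 0.26 and 0.25.

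As a share of all protein-coding FPKM, ribosomal protein genes held 9.02%, 7.85% and 7.90% in control and 8.74%, 9.33% and 9.03% in PA. They held 10.01%, 8.85% and 8.32% with oleate, and with the inhibitor 8.40%, 8.26% and 5.81%. PA+BMS lay below PA without overlap, and PA overlapped control and PA+OA: 7.49% ± 1.45 against 9.04% ± 0.30 (SD, n = 3). In PA+BMS replicate 3 mitochondrially encoded genes held 20.7% of the sum, against 12.5% to 16.8% in the other libraries, and its part in the low share was not tested. With those genes left out of the sum, the library's ribosomal share was 7.33%, still under the 9.16% to 11.4% of the other 11.

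Genes that work around the ribosome, on lists fixed by known function, gave the counts below. They are read beside the shares of all genes. In the main fit 12.8% rose and 14.8% fell with palmitate, 4.01% and 3.91% with oleate, and 25.2% and 29.4% with the inhibitor. With totals equal the shares in the same order were 4.42% and 23.8%, 2.98% and 3.15%, and 37.8% and 10.1%. Without both libraries that stood apart they were 29.9% and 26.8%, 11.2% and 14.2%, and 25% and 30.1%. After removal of the trend they were 6.63% and 9.34%, 7.11% and 7.17%, and 9.69% and 10.4%. Of 77 tested mitochondrial ribosomal proteins, 41 fell and 5 rose with the inhibitor (median -0.42), and 2 rose and 4 fell with palmitate (median 0.18). With library totals equal the inhibitor gave 15 that fell and 16 that rose and palmitate 18 that fell and 0 that rose, and without both libraries that stood apart palmitate gave 8 and 28. Of 21 tested translation factors and other messenger RNAs known as TOP, 8 fell and 5 rose with the inhibitor, shares of 38.1% and 23.8%. The counts were 2 and 10 with totals equal, and 4 and 0 after removal of the trend. RACK1, a small-subunit scaffold, fell from 324 ± 23.7 to 218 ± 21.9 FPKM (SD, n = 3; log2 difference -0.57, limma adjusted p = 0.011), and NPM1, a nucleolar chaperone, rose from 224 ± 7.52 to 294 ± 46.4 FPKM (0.38, limma adjusted p = 0.038). EEF2, the elongation factor of translocation, rose with palmitate from 1139 ± 231 to 2069 ± 256 FPKM (0.87, limma adjusted p = 0.014) and fell with the inhibitor (-0.72, limma adjusted p = 0.015). Of 39 tested assembly and nucleolar factors, 14 fell and 2 rose with palmitate, and 19 fell and 10 rose with the inhibitor, the latter 25.6% of the list. The inhibitor counts were 11 and 14 with totals equal, and 10 and 1 after removal of the trend. Without both libraries 17 fell and 11 rose with palmitate. GNL3, or nucleostemin, fell in PA from 34.3 ± 3.70 to 20.6 ± 1.03 FPKM (-0.70, limma adjusted p = 0.0016).

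Upstream genes were counted likewise, beside the same shares of all genes. Of 14 genes of RNA polymerase I, which makes the ribosomal RNA precursor, 4 fell with palmitate, 2 fell and 1 rose with oleate, and 4 fell and 4 rose with the inhibitor, 28.6% each way and near the shares of all genes. With totals equal 1 fell and 6 rose with the inhibitor and 7 fell with palmitate, and after removal of the trend 2 fell and 1 rose with the inhibitor and 2 fell with palmitate. UBTF, its upstream binding factor, fell in PA+OA from 26.3 ± 2.06 to 16.8 ± 1.21 FPKM (SD, n = 3; -0.62, limma adjusted p = 0.0029). Of 20 tested regulators of TOP messenger RNA and ribosomal stress, 4 rose and 2 fell with palmitate. With oleate 0 rose and 2 fell, and with the inhibitor 7 rose and 6 fell. The inhibitor counts were 10 and 3 with totals equal, and 2 and 2 after removal of the trend. LARP1, which binds the TOP start, fell in PA+OA from 38.3 ± 1.97 to 18.5 ± 3.63 FPKM (-1.03, limma adjusted p = 0.0025) and was 38.8 ± 7.32 FPKM in PA+BMS. RPTOR, the mTOR partner that recruits its substrates, fell in PA+OA (-0.60, limma adjusted p = 0.0099) and in PA+BMS (-0.74, limma adjusted p = 0.0028). MTOR itself rose in PA+BMS (0.41, limma adjusted p = 0.049). Among 12 long noncoding hosts of small nucleolar RNAs with TOP starts, 3 rose and 0 fell with oleate (median 0.48), and 4 fell with the inhibitor (median -0.45). Without both libraries 6 rose with oleate, and 1 fell and 1 rose with the inhibitor (median -0.18). With totals equal 2 rose with oleate, and 0 fell and 1 rose with the inhibitor. SNHG1 rose in PA+OA from 17.9 ± 5.38 to 54.1 ± 5.80 FPKM (1.59, limma adjusted p = 0.0040). GAS5, the host known for its TOP start, was 79.2 ± 5.82 against 51.0 ± 10.5 FPKM (0.64, limma adjusted p = 0.17).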

How the data were processed

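Messenger RNA was selected with poly-T beads and sequenced as read pairs, per the labels' protocols. Tools listed in the submitters' processing notes are HISAT2 2.0.5, featureCounts 1.5.0-p3 and CASAVA. For the genome build, the strand setting and the FPKM step, nothing is given in the sources used here. FPKM values were used as deposited by the authors, and all 58735 gene IDs, symbols, starts and ends equalled GENCODE 29 on GRCh38. Each file length was the summed exon length over transcripts, a median of 2.62 times that of the main transcript, which lowers FPKM. All values were whole reads within 0.001.

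Genes with at least 1 FPKM in 3 of 12 libraries entered limma 3.58.1 (R 4.3.3) on log2(FPKM + 1), so differences of low genes are understated. The fit had 1 coefficient per group, 8 residual degrees of freedom, a mean-variance trend, Benjamini-Hochberg adjustment within each comparison at 0.05 and two-sided p. The code was tested on simulated data. Alternatives changed the filter, pseudocount, scaling, model or libraries. Trend removal fitted GC content and length by splines. It was combined with leaving out libraries after the data were seen. Genes named were those highest and lowest in level, difference and variation, paralogs, members of known role and the top 3 of each list by p. Members and lists were chosen with earlier results of these data known. Some genes are not reported by name here. Promoter sequences are from RefSeq on GRCh38.p14.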

Additional observations from a re-analysis of the deposited data

How the results depend on the processing

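With palmitate, the 1 gene that rose became 0 without a filter, 4 with a filter at 5 FPKM, 0 with library totals equal, 0 after quantile normalization, 41 when only both groups compared were fitted, 47 without the 2 libraries that stood apart, 3 among protein-coding genes alone, 6 with voom, 0 after removal of the GC and length trend, and 38 after both steps. The 1 that fell became 0 without a filter, 6 with totals equal, 7 after quantile normalization, 3 without both libraries and 0 after trend removal. The median of 0.32 became 0.046 with totals equal and 0.029 after quantile normalization. Leaving out 1 library at a time gave 0 to 19 that rose and 0 to 1 that fell. The 19 came without PA+OA replicate 1, and 10 rose without PA+BMS replicate 3. For several fits, here and below, shares of all genes are not given. They are those without a filter or with one at 5 FPKM, and those of only the groups compared. The others are protein-coding genes alone, voom, and leaving out 1 library. These counts cannot be set against the background. Without the 2 libraries that stood apart, 29.9% of all genes rose with palmitate, against 12.8% in the main fit.

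With oleate, the 0 that rose became 1 without both libraries, and the 0 that fell became 12 without both, 1 after trend removal and 25 after both steps. Leaving out 1 library gave 0 to 1 in each direction, and a median of -0.22 without PA+OA replicate 1 but 0.0075 and 0.081 without replicate 2 or 3. With the inhibitor, the 0 that rose became 4 with totals equal and 9 after quantile normalization. The 55 that fell became 14 without a filter, 16 with totals equal, 10 after quantile normalization and 36 after trend removal. Leaving out 1 library gave 13 (PA+BMS replicate 3) to 61, and 18 without PA replicate 2. The median of -0.58 became -0.21 with totals equal and -0.059 after quantile normalization.

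With the inhibitor 19 of 81 differences were positive with totals equal and 29 after quantile normalization, against 3. Among those named with a call in either fit, RPL11 0.012, RPL14 0.35 and RPL5 0.36 turned positive with totals equal. After quantile normalization so did RPL11 0.21, RPL14 0.40, RPL41 0.046, RPL5 0.55, RPL7 0.40, RPS12 0.049, RPS27A 0.19 and RPS6 0.53. With palmitate 34 were negative with totals equal and 37 after quantile normalization, against 10, among them RPS27A at -0.23 in the last. As a share of recovered reads the family held 6.58% in control, 7.68% in PA, 7.72% with oleate and 5.93% with the inhibitor. Over all annotated genes it held 7.59%, 8.30%, 8.18% and 6.85% in the same order. The cause of these changes was not tested.

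Replicate numbers were not used to pair libraries in the main fit. Deviations of libraries with the same number correlated at -0.28 to 0.56 over 18 pairs, with a median of 0.11. Over 36 pairs with different numbers the range was -0.54 to 0.40 and the median -0.092. A replicate block gave 22 that rose and 2 that fell with palmitate, 1 and 0 with oleate, and 0 and 62 with the inhibitor. Shares of all genes with the block are not given, so its counts cannot be set against the background. Depth is known only through the recovered reads and the library size behind the values. With 3 libraries a group the spread is poorly known. Genes near 1 FPKM, RPS10 above all, rest on few reads.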

Other observations

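Outside the family, the protein-coding genes whose log2(FPKM + 1) followed the mean of the 81 ribosomal protein genes most closely over 12 libraries were PFN1, which encodes an actin-binding protein, C19orf70 and FAU, which encodes a ubiquitin-like protein fused to the small-subunit protein eS30, each with a Pearson correlation of 0.99. Over the 10 libraries left when PA+OA replicate 1 and PA+BMS replicate 3 were dropped they were ATP6V0B, C1orf122 and MRPL24, also at 0.99. A correlation above 0.9 was found for 60 of the 81 genes and for 10.6% of other genes over 12 libraries, and for 46 of the 81 and 7.05% of other genes over 10. These libraries share depth, scaling and the trend with GC content, so the values are a description.

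FAU read 195 ± 13.9 FPKM in PA (SD, n = 3) and 96.9 ± 26.01 FPKM in PA+BMS, a log2 difference of -1.04 (limma adjusted p = 0.0090), beside a family median of -0.58. FAU is a ribosomal protein gene by function but does not carry an RPL or RPS name.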
